A study of Mus musculus with 16 samples.

Results

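The genes described here are 33 known targets and partners of the transcription factor ATF4 in the amino acid response, taken by name out of the 24485 gene IDs of the expression files. The genes were listed by name and not by a threshold on measured values, although earlier results of these data were known, and all 33 names matched 1 gene ID each. They comprise 7 transcription factors, 6 stress regulators and enzymes, 6 amino acid transporters, 9 cytosolic tRNA synthetases, 3 secreted factors and 2 proteins of the endoplasmic reticulum or cell surface. mRNA was sequenced from immortalized mouse embryonic fibroblasts, cells grown out of embryos and adapted to unlimited culture. The exp line has the genotype R26M2rtTA/+;TetOcre;Sdhcfl/fl and the ctl line has R26M2rtTA/+;TetOcre;Sdhcfl/wt, so that doxycycline switches on Cre recombinase in both, and Cre can remove both copies of Sdhc in exp but only the floxed copy in ctl. Doxycycline was given at 1 µg/mL in low-glucose DMEM with serum, and each line was sampled at days 0, 5, 9, 12, 16 and 20, with 3 biological replicates at day 16 and 1 library at every other day.

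ATF4 is the main effector of the integrated stress response. When a kinase such as GCN2, PERK or HRI phosphorylates the initiation factor eIF2, general translation slows while the ATF4 mRNA is translated more, and the protein then activates genes for amino acid uptake, amino acid synthesis and the charging of tRNA. Amino acid shortage, endoplasmic reticulum stress and defects of the mitochondrial respiratory chain are known triggers of the pathway in cultured cells, and its mRNA targets are often used as its readout, since the ATF4 protein itself is not seen by RNA sequencing.

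The 16 libraries held between 18121406 and 42486178 reads in genes. Sdhc, the targeted gene and a membrane subunit of succinate dehydrogenase, was at 87.8 FPKM in exp and 90.5 FPKM in ctl at day 0. Later it was below its day 0 value in both lines, at 26.5 to 54.4 FPKM in exp and 47.5 to 58.6 FPKM in ctl. At days 5 and 9 it was at 54.4 and 43.8 FPKM in exp and at 58.6 and 47.6 FPKM in ctl. Over days 5 to 20 it was lower in exp, with a difference of -0.39 ± 0.09 (log2, SE, limma adjusted p = 0.0085). There is 1 line for each genotype, so line and genotype cannot be told apart, and no series without doxycycline was analysed, so time in culture and drug cannot be told apart either. All p-values therefore measure the spread among libraries of these lines. The lines also differed in markers of cell identity: the summed FPKM of 8 mesothelial and epithelial markers ran from 62.6 to 757 (median 216) in exp and from 98.7 to 128 (median 115) in ctl, and 5 of 7 tested were higher in exp over days 5 to 20. In every ctl library 5 of the 8 stayed under 1 FPKM, as did 1 of the 8 in every exp library, so that 4 of the 7 (Upk3b, Wt1, Krt8 and Krt18) passed the filter of a mean of 1 FPKM only through exp. Those with the smallest p were Upk3b, a urothelial and mesothelial membrane protein, at 6.32 ± 0.63 (log2, SE), and Wt1, Krt18 and Krt19. The mesothelial marker Msln ran from 15.3 to 131 FPKM in exp and from 84.8 to 121 FPKM in ctl, where it made up most of the sum. Cdh1 ran from 0.713 to 1.54 FPKM in exp and from 1.08 to 1.55 FPKM in ctl, and neither was called. The 9 fibroblast markers summed to 3030 to 4450 FPKM in exp and 2960 to 3430 in ctl, with 4 higher and 1 lower in exp, among them Col1a2 at 2.76 ± 0.08 and Pdgfra at -1.25 ± 0.09. All 9 fibroblast markers reached 1 FPKM in some library of both lines. Of 3 tested smooth muscle markers 2 were higher, of 4 endothelial markers all stayed under 1 FPKM in every library, and the single tested blood marker, Cd68, was lower at -0.55 ± 0.08. The part of these differences in the results below was not tested.

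Promoter sequences of the genes are shown first because ATF4, paired with a C/EBP protein, is known to bind an 8-base element that can be searched by letters. The motif searched was TGATGNAA on both strands, in RefSeq windows (GRCm38.p6) from 250 bases before to 50 bases after each gene's start. Of the 29 genes with a window 13 held the motif, a share of 44.8%, against 1219 of 27025 genes with a window, or 4.51%. These genes were chosen as known targets and partners of ATF4, so the share describes the choice and is no result of these libraries. Slc7a11 and Aars held 2 matches each. The other 4 genes, Slc7a5, Wars, Nars and Cars, were not searched. The 250 bases upstream of Slc7a11 (chr3:50443614-50443863, minus strand) and Asns (chr6:7693210-7693459, minus strand) follow, with the motif in capitals. In Slc7a11 the matches lie on opposite strands, at 66 and 47 bases before the start by their first base, and in Asns the match lies 23 bases before the start.
Slc7a11: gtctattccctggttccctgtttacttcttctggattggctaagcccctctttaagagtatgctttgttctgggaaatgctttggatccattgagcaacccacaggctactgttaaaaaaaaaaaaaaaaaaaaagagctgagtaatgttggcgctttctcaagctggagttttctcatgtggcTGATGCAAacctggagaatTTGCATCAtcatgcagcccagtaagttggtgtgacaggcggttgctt
Asns: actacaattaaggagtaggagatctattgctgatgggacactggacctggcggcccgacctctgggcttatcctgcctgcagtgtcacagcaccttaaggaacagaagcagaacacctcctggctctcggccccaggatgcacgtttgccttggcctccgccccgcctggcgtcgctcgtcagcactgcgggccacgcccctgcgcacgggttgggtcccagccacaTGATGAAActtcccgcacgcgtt

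Matches of genes that represent the other patterns below are printed with 6 bases on each side, on the strand that reads TGATGNAA. The capitals lie at chr2:152344039-152344046 for Trib3, chr2:119351049-119351056 for Chac1, chr7:45615622-45615629 for Fgf21, chr8:94386317-94386324 for Herpud1, chr1:191183436-191183443 for Atf3, chr7:126625573-126625580 for Nupr1 and chr11:20332710-20332717 for Slc1a4, and the Aars matches lie at chr8:111033730-111033737 and chr8:111033851-111033858. All are GRCm38.p6 positions.
Trib3: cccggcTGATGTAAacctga
Chac1: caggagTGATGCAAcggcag
Fgf21: gacggaTGATGCAAtggggg
Herpud1: gcgggcTGATGCAAcccgcc
Aars, first match: ctcggcTGATGCAAtgctca
Aars, second match: gcgctcTGATGAAAagtgac
Atf3: acttggTGATGCAAgtgcga
Nupr1: cctgtcTGATGCAAtctggc
Slc1a4: tggagaTGATGCAAcgcagg
The remaining genes with a match were Gars, Tars and Vldlr. Of the 13 genes with a match 9 were called higher in exp over days 5 to 20, as were 11 of the 15 tested genes that had a window and no match, where 17.3% of all genes tested were higher. A match is a run of letters and not a measured binding site.

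Over days 5 to 20 the ATF4-response genes were broadly higher in exp than in ctl. Of the 33 genes 32 passed the filter of a mean of 1 FPKM, and 23 of them were higher in exp and 0 lower (limma on log2(FPKM + 1), Benjamini-Hochberg adjusted p under 0.05 over all genes), with Slc1a4 lower when day 16 was left out. Of all 12553 genes tested 33.4% were called in this comparison, 17.3% higher and 16.2% lower in exp. The median difference of the 32 genes was 0.46 (log2), against -0.00 over all genes tested. On this scale the largest differences were those of Trib3, Fgf21, Slc7a11, Atf5 and Asns, between 1.05 and 1.68. The order depends on the pseudocount for genes with a low FPKM: with 0.1 in place of 1, Fgf21 was at 2.65, Slc7a11 at 1.94 and Trib3 at 1.75, with 5 they were at 0.48, 0.58 and 1.41, and by limma voom on the recovered reads at 2.73, 1.94 and 1.71. By group, 5 of 7 factors, 5 of 6 regulators and enzymes, 4 of 6 transporters, 7 of 9 synthetases, 1 of 2 tested secreted factors and 1 of the 2 endoplasmic reticulum or surface proteins were higher. In bulk RNA a higher level in every cell and a larger share of cells with the gene on cannot be told apart.

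At day 0, with 1 library per line and no test, the median of the 33 genes was 0.23 higher in exp (log2), with 24 above 0, while the median over all genes was 0.08, with 58.1% above 0. At days 5, 9, 12, 16 and 20 the median was 0.35, 0.49, 0.40, 0.43 and 0.37, with 29, 29, 27, 33 and 30 genes above 0, while the median over all genes lay between -0.02 and 0.04, with 46.5% to 55.4% of genes above 0. At day 0, 6 of the 33 genes were at least 1.5-fold above ctl in FPKM (Atf3, Trib3, Chac1, Cebpb, Slc7a11 and Fgf21) and 2 at least 1.5-fold below (Vldlr and Slc1a4), shares close to the 17.0% above and 7.37% below among all genes tested. Over all days 19 of the 33 genes were above ctl in each of 8 same-day pairs of libraries, those of day 16 matched by replicate number, against 13.9% of all genes tested.

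**Figure D1:**
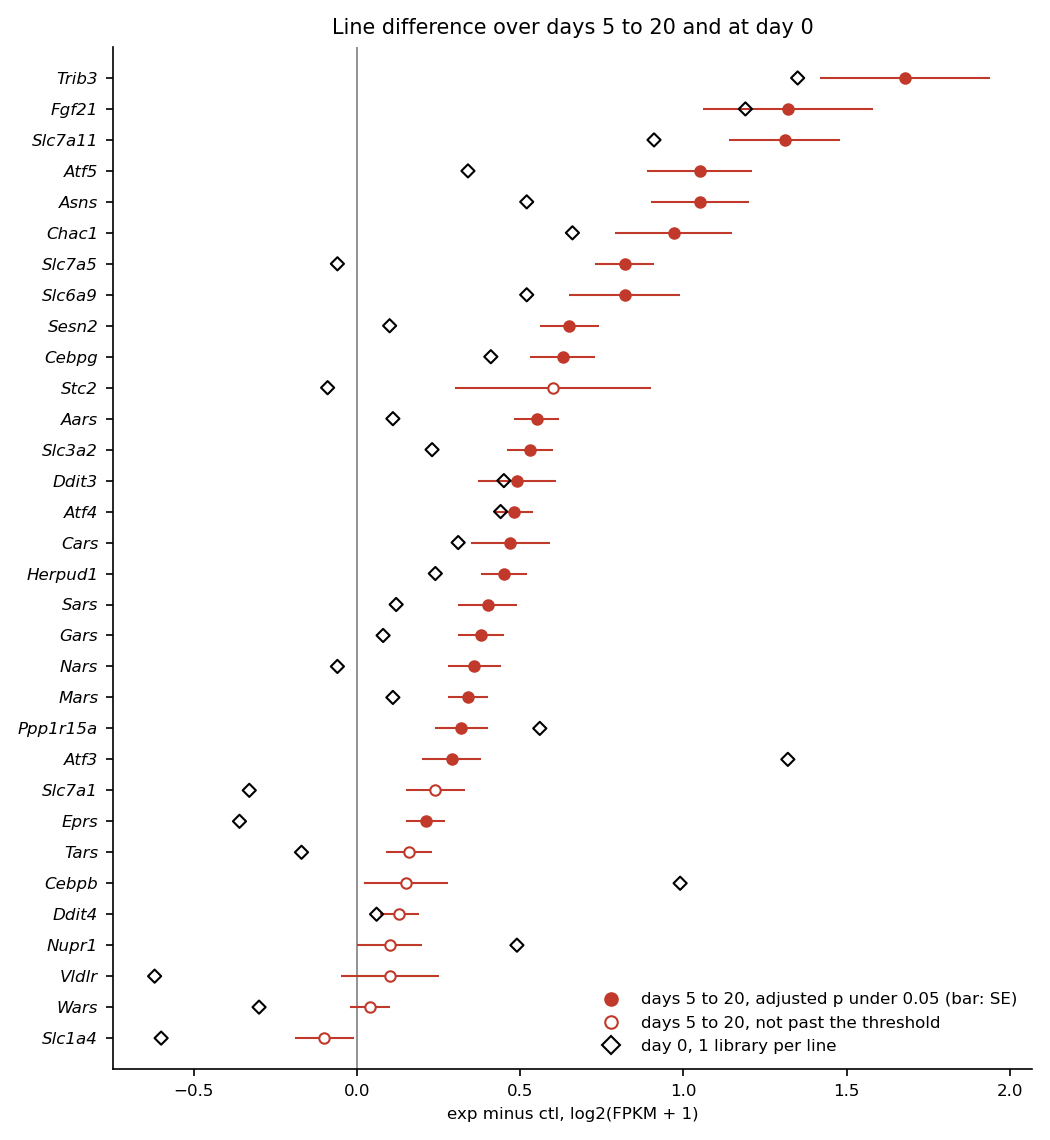
Difference between exp and ctl in log2(FPKM + 1) for the 32 genes tested, as the average over days 5 to 20 (circles, bars are the SE, filled where the adjusted p is under 0.05) and at day 0 (diamonds, 1 library per line). Trib3 and Fgf21 were far above 0 at both times, Slc7a5 was at -0.06 at day 0 and 0.82 later, and Atf3 was at 1.32 at day 0 and 0.29 later.

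Among the factors, Atf4 itself (gene ID 11911, chromosome 15, 80085614 to 80087970, plus strand in mm9) was the most abundant of the 33 genes. It had 226, 191, 198 and 201 FPKM in exp at days 0, 5, 9 and 12, then 272, 274 and 297 at day 16 and 221 at day 20, and 166, 131, 153 and 152 FPKM in ctl at days 0 to 12, then 165, 213 and 200 at day 16 and 165 at day 20. Exp was above ctl on every day, including day 0, and the ranges overlapped because ctl day 16 replicates 2 and 3 both exceeded exp days 5 and 9, and replicate 2 also exp day 12. The difference over days 5 to 20 was 0.48 ± 0.06 (log2, SE, limma adjusted p = 0.000212), next to 0.44 at day 0.

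Ddit3, which encodes the stress factor CHOP, had 40.9, 33.9, 51.7 and 49.8 FPKM in exp at days 0 to 12, then 46.4, 59.6 and 72.7 at day 16 and 50.7 at day 20, against 29.7, 27.6, 34.1 and 32.4, then 32.1, 50.6 and 47.3, and 33.1 FPKM in ctl. It was higher in exp over days 5 to 20 by 0.49 ± 0.12 (adjusted p = 0.00889), and the day 16 values of the lines overlapped. Its annotated span shares 68 bases with Mars, which lies on the other strand, and the strand setting of the counting is not known, so reads there cannot be assigned. Atf5, a related factor known for the mitochondrial stress response of mammals, had 46.6 and 55.9 FPKM in exp at days 0 and 5, then 138 and 134 at days 9 and 12, 90.6, 122 and 122 at day 16 and 90.7 at day 20. In ctl it had 36.7, 43.6, 46.0 and 44.7 FPKM at days 0 to 12, then 43.3, 68.2 and 65.6 at day 16 and 42.8 at day 20. The separation was widest at days 9 and 12, at 1.57 (log2) on both, and the difference over days 5 to 20 was 1.05 ± 0.16 (adjusted p = 0.000726). Atf5 overlaps Nup62 by 571 bases and Il4i1 by 289 bases in the mm9 annotation, both on the other strand. Cebpg, a C/EBP partner of ATF4, ranged from 20.4 to 33.5 FPKM in exp and from 13.5 to 21.3 FPKM in ctl, and its difference was 0.63 ± 0.10 (adjusted p = 0.000633).

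The other 3 factors had another course, with their highest exp value at day 0. Atf3, an early stress factor, was at 12.9 FPKM in exp at day 0, at 4.19, 3.49 and 5.35 at days 5, 9 and 12, at 7.97, 6.48 and 7.78 at day 16 and at 6.53 at day 20, against 4.55, 3.04, 3.72, 4.29, then 4.36, 6.16 and 5.90, and 4.95 FPKM in ctl. At day 9 it was below ctl, and over days 5 to 20 it was higher in exp by 0.29 ± 0.09 (adjusted p = 0.0247), a call that was lost without day 5, 16 or 20 and without day 16 replicates 2 and 3 (adjusted p of 0.0511 to 0.136). Cebpb, another C/EBP partner, was at 37.8 FPKM in exp against 18.6 in ctl at day 0, and at 14 to 29.8 FPKM in exp and 16.9 to 29.3 in ctl afterwards, with a difference of 0.15 ± 0.13 (adjusted p = 0.396). Nupr1, a stress-induced chromatin-binding protein, was at 139 FPKM in exp against 98.6 in ctl at day 0, and at 61.8 to 99.2 in exp and 63.1 to 88.1 in ctl later, with a difference of 0.10 ± 0.10 (adjusted p = 0.467).

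**Figure D2:**
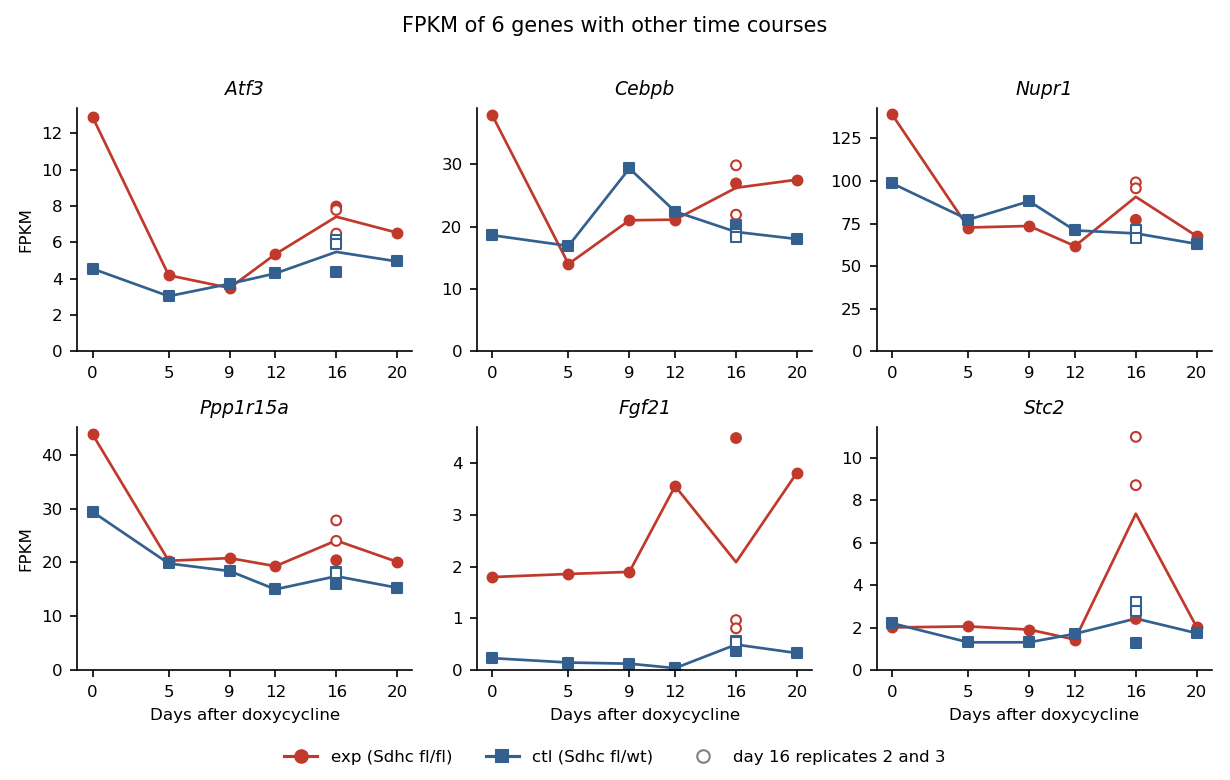
FPKM by day in exp (red circles) and ctl (blue squares) of 6 genes whose course differed from that of the Atf4 group. Each symbol is 1 library, open symbols are day 16 replicates 2 and 3, and lines join the values, or the mean at day 16. Atf3, Cebpb, Nupr1 and Ppp1r15a had their highest exp value at day 0, while Fgf21 was low and Stc2 high in exp day 16 replicates 2 and 3.

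Of the regulators and enzymes, Trib3 had the largest difference on this scale. It encodes a pseudokinase that feeds back on ATF4 and AKT (gene ID 228775, chromosome 2, 152163158 to 152169768, minus strand in mm9). It had 19.5, 25.9, 42.8 and 44.7 FPKM in exp at days 0, 5, 9 and 12, then 46.0, 58.3 and 72.6 at day 16 and 38.8 at day 20, against 7.03, 7.79, 9.67 and 9.25 FPKM, then 9.96, 33.9 and 32.4, and 9.54 in ctl. Exp was above ctl at every day, and ctl day 16 replicates 2 and 3 stood far above the other ctl libraries. The difference over days 5 to 20 was 1.68 ± 0.26 (adjusted p = 0.000716), and at day 0 it was already 1.35.

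Asns, asparagine synthetase, makes asparagine from aspartate (gene ID 27053, chromosome 6, 7625169 to 7643254, minus strand in mm9). It had 36.6, 45.0, 71.8 and 56.6 FPKM in exp, then 66.4, 83.2 and 105 at day 16 and 54.8 at day 20, against 25.2, 21.3, 25.5 and 26.3, then 28.6, 53.4 and 48.9, and 29.9 FPKM in ctl. Its difference over days 5 to 20 was 1.05 ± 0.15 (adjusted p = 0.000432), with 0.52 at day 0. Chac1, an enzyme that degrades glutathione, had 14.7, 16.7, 16.0 and 21.5 FPKM in exp, then 30.8, 34.9 and 39.4 and 25.9, against 8.91, 7.21, 9.82 and 10.1, then 9.99, 25.3 and 23.2 and 10.0 in ctl, a difference of 0.97 ± 0.18 (adjusted p = 0.00216). For Asns and Chac1, as for Trib3, the highest ctl values were those of day 16 replicates 2 and 3. Sesn2, an inhibitor of mTORC1 that senses leucine, was nearly level at day 0, at 8.39 FPKM in exp against 7.74 in ctl. Later it ran from 12.1 to 22.7 FPKM in exp and from 7.68 to 12.0 in ctl, so that every exp library of days 5 to 20 exceeded every ctl library of those days, and its difference was 0.65 ± 0.09 (adjusted p = 0.000286).

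Ppp1r15a encodes GADD34, the phosphatase subunit that reverses eIF2 phosphorylation. It was at 43.8 FPKM in exp against 29.4 in ctl at day 0 and at 19.3 to 27.8 in exp and 15.0 to 19.8 in ctl afterwards. Its difference over days 5 to 20 was 0.32 ± 0.08 (adjusted p = 0.00915), and it was lost without day 16 (0.23, adjusted p = 0.0679). It overlaps Tulp2 by 717 bases on the other strand. Ddit4, or REDD1, another mTORC1 inhibitor, ranged from 41.8 to 56.7 FPKM in exp and from 39.8 to 54.6 in ctl, with a difference of 0.13 ± 0.06 that did not pass the test (adjusted p = 0.106).

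**Figure D3:**
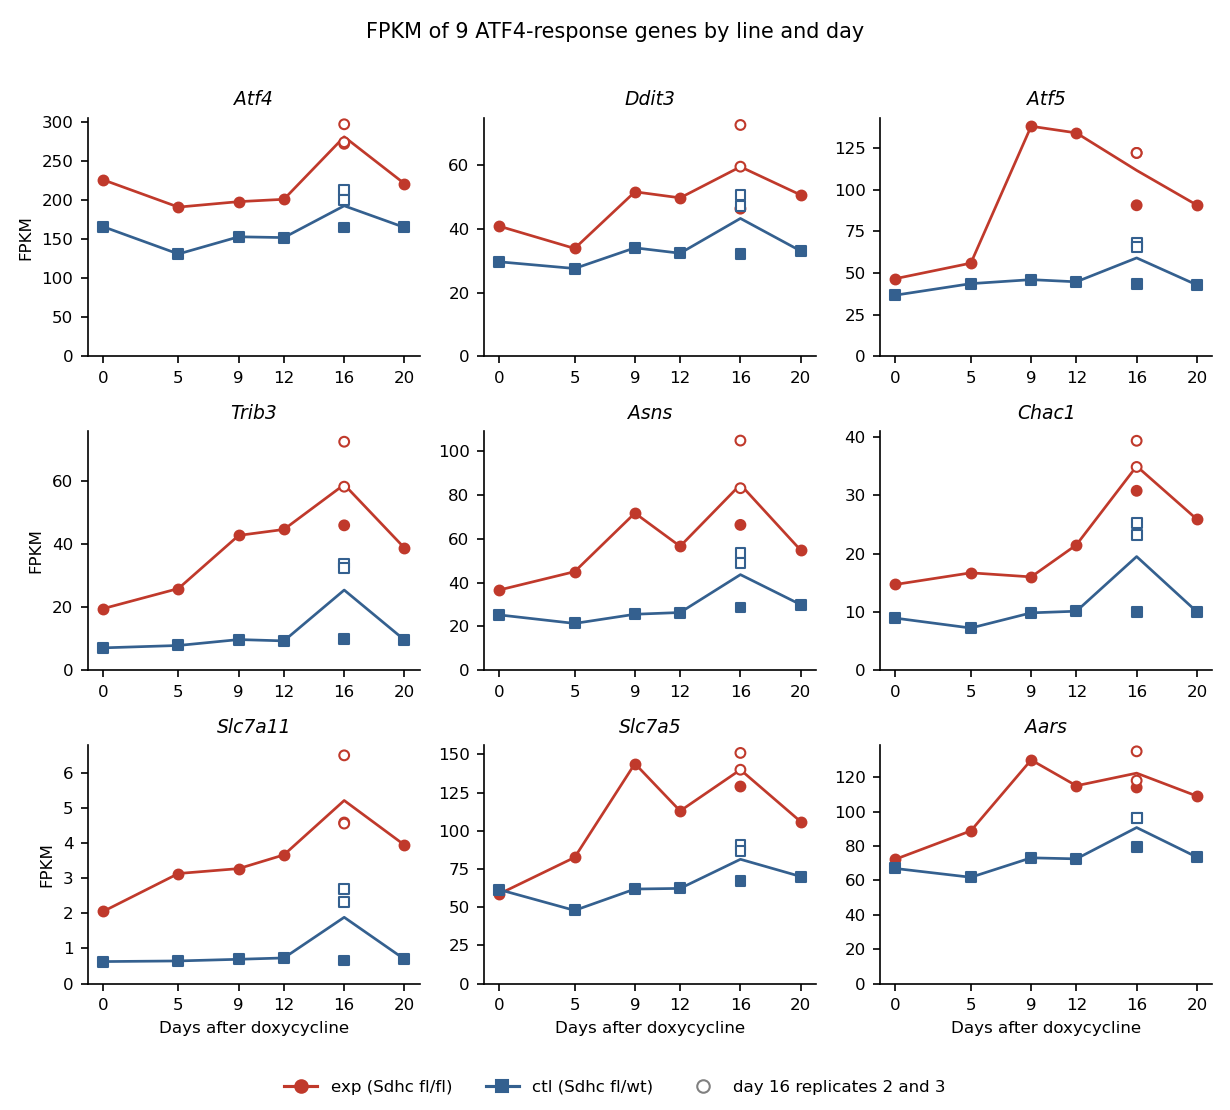
FPKM by day of 9 of the genes in exp (red circles) and ctl (blue squares). Each symbol is 1 library, open symbols are day 16 replicates 2 and 3, and lines join the values, or the mean at day 16. Atf4, Trib3, Asns, Chac1 and Slc7a11 were above ctl from day 0 on, Slc7a5 and Aars were level at day 0, and day 16 replicates 2 and 3 were above replicate 1 in ctl for all 9.

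Of the 6 transporters 4 were higher in exp over days 5 to 20. Slc7a5 and Slc3a2 encode LAT1 and its heavy chain 4F2hc, which together exchange leucine and other large neutral amino acids, and Slc7a11 encodes the cystine importer xCT, which uses the same heavy chain. Slc7a5 (gene ID 20539, chromosome 8, 124405052 to 124431594, minus strand in mm9) was at 58.7 FPKM in exp against 61.5 in ctl at day 0. At days 5, 9 and 12 it was at 82.6, 144 and 113 FPKM in exp, at day 16 at 129, 140 and 151 and at day 20 at 106, against 47.9, 61.9 and 62.3, then 67.0, 90.5 and 86.6, and 70.1 FPKM in ctl. From day 5 on exp was above ctl on each day, with a difference of 0.82 ± 0.09 and the smallest p of the 33 genes (adjusted p = 5.28e-05). Its annotated span holds a predicted gene, Gm20388, on the other strand over 26543 bases. Slc3a2 ranged from 60.6 to 101 FPKM in exp and from 48.4 to 68.2 in ctl, and differed by 0.53 ± 0.07 (adjusted p = 0.000184).

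Slc7a11 (gene ID 26570, chromosome 3, 50168858 to 50247535, minus strand in mm9) was the lowest of the transporters per length. It had 2.05, 3.13, 3.27 and 3.66 FPKM in exp, then 4.58, 4.55 and 6.49 at day 16 and 3.94 at day 20, against 0.626, 0.644, 0.691 and 0.729, then 0.655, 2.69 and 2.31, and 0.693 FPKM in ctl. These values rest on 377 to 2505 reads in exp and 163 to 1056 reads in ctl. The only ctl libraries above 1 FPKM were day 16 replicates 2 and 3, both higher than exp day 0. The difference over days 5 to 20 was 1.31 ± 0.17 (adjusted p = 0.00022). Slc6a9, the glycine transporter GLYT1, ranged from 12.0 to 31.1 FPKM in exp and from 8.03 to 18.1 in ctl, with a difference of 0.82 ± 0.17 (adjusted p = 0.00383). It overlaps Ccdc24 and B4galt2 on the other strand.

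The remaining transporters did not pass the test over days 5 to 20 with no library left out and no replicate block. Slc7a1, the cationic amino acid transporter CAT1, was at 15.3 FPKM in exp against 19.6 in ctl at day 0 and at 25.6 in exp and 20.1 in ctl at day 20, with a difference over days 5 to 20 of 0.24 ± 0.09 (adjusted p = 0.0671), which passed with the replicate block (limma adjusted p = 0.0202). Slc1a4, the neutral amino acid exchanger ASCT1, was at 13.2 FPKM in exp against 20.5 in ctl at day 0 and at 20.2 in exp and 23.5 in ctl at day 20. It was the only one of the 32 genes with a negative difference over days 5 to 20, at -0.10 ± 0.09 (adjusted p = 0.433). Without day 16 it was called lower, at -0.25 ± 0.06 (limma adjusted p = 0.0239). Over all days exp exceeded ctl in only 2 of its 8 same-day pairs.

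Aminoacyl-tRNA synthetases load amino acids onto their tRNAs, and those of the cytosol are a known ATF4 target class. Aars (alanine) had 72.3, 88.8, 130 and 115 FPKM in exp at days 0 to 12, then 114, 118 and 135 at day 16 and 109 at day 20, against 66.9, 61.8, 73.1 and 72.5, then 79.6, 96.3 and 96.2, and 73.5 FPKM in ctl. It was nearly level at day 0 and well above ctl from day 5 on, and its difference over days 5 to 20 was 0.55 ± 0.07 (adjusted p = 0.000195). Gars (glycine), Nars (asparagine), Sars (serine), Cars (cysteine) and Mars (methionine) were also higher, by 0.34 to 0.47 (log2), with day 0 differences of -0.06 to 0.31.

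Eprs, which charges glutamate and proline, was at 32.4 FPKM in exp against 41.7 in ctl at day 0. Later it was at 47.4, 51.3 and 46.8 FPKM at days 5, 9 and 12, 58.0, 61.9 and 71.6 at day 16 and 50.2 at day 20 in exp, against 40.7, 43.1 and 43.3, then 46.1, 58.0 and 54.6, and 46.1 FPKM in ctl. It was below ctl at day 0 and above on each later day, and the difference of 0.21 ± 0.06 (adjusted p = 0.0264) lost its call without day 5, 9 or 16 (adjusted p of 0.0552 to 0.0888). Tars (threonine) ran from 32.7 to 59.8 FPKM in exp and from 30.9 to 46.8 in ctl, with 0.16 ± 0.07 (adjusted p = 0.127), and Wars (tryptophan), which ran from 19.9 to 33 FPKM in exp and from 22.8 to 28.9 in ctl, was at 0.04 ± 0.06 (adjusted p = 0.611).

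The secreted factors were low and uneven. Fgf21, a hormone that stressed cells release, had 34, 32, 44, 76, 127, 36, 32 and 94 reads in exp (days 0, 5, 9, 12, the 3 replicates of day 16, and day 20), against 7, 4, 3, 1, 12, 23, 21 and 9 reads in ctl. This is 0.808 to 4.49 FPKM in exp and 0.0376 to 0.572 FPKM in ctl. It was the only one of the 33 genes for which all 8 exp libraries were above all 8 ctl libraries, against 5.5% of all genes tested, and it passed the filter on low values only through exp. Its difference over days 5 to 20 was 1.32 ± 0.26 (adjusted p = 0.00335), with 1.19 at day 0. The lowest exp values, 0.968 and 0.808 FPKM in day 16 replicates 2 and 3, came with the lowest Upk3b of that line, 22.9 and 28.0 FPKM. The highest, 4.49 and 3.82 FPKM in day 16 replicate 1 and at day 20, came with 455 and 433 FPKM of Upk3b. In exp at days 0, 5, 9 and 12 Fgf21 was at 1.8, 1.86, 1.9 and 3.56 FPKM. Upk3b was at 84.8, 103, 50.3 and 127 FPKM in those libraries. All ctl libraries had under 1 FPKM of Upk3b. The part of Upk3b-bearing cells in the Fgf21 values was not tested.

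Gdf15, a circulating stress signal and a common marker of mitochondrial disease, was nearly silent, with 7 to 48 reads in exp and 6 to 17 in ctl, and did not enter the tests. Its highest values were 0.660 and 0.581 FPKM, in exp day 16 replicates 2 and 3. Stc2, a glycoprotein hormone, had 2.01, 2.06, 1.91 and 1.44 FPKM in exp, then 2.41, 8.72 and 11 at day 16 and 2.02 at day 20, against 2.21, 1.31, 1.31 and 1.71, then 1.29, 3.22 and 2.78, and 1.74 FPKM in ctl. Replicates 2 and 3 of day 16 held the highest value in each line, and the difference of 0.60 ± 0.30 over days 5 to 20 did not pass the test (adjusted p = 0.148) but did with the replicate block (limma adjusted p = 0.0486). Herpud1, which takes part in the degradation of misfolded proteins at the endoplasmic reticulum, ran from 31.3 to 50.3 FPKM in exp and from 26.1 to 37.9 in ctl and was higher by 0.45 ± 0.07 (adjusted p = 0.000628). Vldlr, a lipoprotein receptor, was at 2.62 FPKM in exp against 4.58 in ctl at day 0 and at 5.01 in exp and 4.64 in ctl at day 20, with a difference of 0.10 ± 0.15 (adjusted p = 0.65).

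At day 16, the replicated day, all 33 genes had a higher mean in exp, but few passed the test by itself. Of the 32 tested 3 were higher in exp and 0 lower, where 6.1% of 12533 genes were called, 3.1% higher and 3.01% lower. Slc7a5 averaged 140 ± 11 FPKM in exp and 81.4 ± 12.6 FPKM in ctl (SD, n = 3 each), a difference of 0.78 ± 0.13 (log2, SE, limma adjusted p = 0.0276). Slc3a2 averaged 95.1 ± 8.17 FPKM in exp and 63.4 ± 6.89 in ctl (SD), at 0.58 ± 0.11 (limma adjusted p = 0.0378), and Atf4 averaged 281 ± 13.8 FPKM in exp and 193 ± 24.5 in ctl (SD), at 0.55 ± 0.11 (limma adjusted p = 0.0427). The next was Sesn2, at 0.73 ± 0.17 (limma adjusted p = 0.0602). For 21 genes the lowest exp replicate was above the highest ctl replicate, against 15.4% of all genes tested, and for 0 genes was the reverse seen (16.6% of all genes). With the replicate number as a block 11 genes were higher, against 4.34% of all genes: Atf4, Atf5, Cebpg, Slc3a2, Slc7a5, Ppp1r15a, Sesn2, Asns, Aars, Gars and Nars. When exp replicate 1 was left out 9 genes were higher, against 7.28% of all genes. Leaving out replicate 2 or 3 of either line left 0 calls. Of all genes 1.89% and 1.93% were then called for exp, and 1.74% and 1.57% for ctl. The median difference of the 32 genes in those fits lay between 0.4 and 0.49 (log2).

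The spread at day 16 had a direction that both lines shared. Replicates 2 and 3 were both above replicate 1 in both lines for 25 of the 33 genes, against 32.6% of all genes tested, and both below in both lines for 0 of them (25.3%). The median of the 33 genes was 0.29 higher in replicates 2 and 3 in exp and 0.34 higher in ctl (log2), where the medians of all genes were 0.03 and 0.02. For Trib3 the step was 0.49 in exp and 1.64 in ctl, for Chac1 0.26 in exp and 1.20 in ctl, for Slc7a11 0.21 in exp and 1.08 in ctl, and for Stc2 1.66 in exp and 0.80 in ctl. In both lines replicates 2 and 3 were also more alike over all genes, with Pearson's r of 0.995 in exp and 0.997 in ctl, than either was to replicate 1, with r of 0.952 and 0.954 in exp, and of 0.979 and 0.981 among ctl libraries. The labels give no batch for these libraries, and what sets them apart was not tested.

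Within each set of day 16 libraries the lines differed in the same direction. Replicate 1 alone gave a median difference of 0.53 (log2), with 31 of the 33 genes above 0, and replicates 2 and 3 gave 0.42, with all 33 above 0. Trib3 differed by 2.10 in replicate 1 and by 0.95 in replicates 2 and 3, Slc7a11 by 1.75 and 0.88, and Slc7a5 by 0.93 and 0.71. Without replicates 2 and 3 the count over days 5 to 20 was again 23, against 19.4% of all genes.

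**Figure D4:**
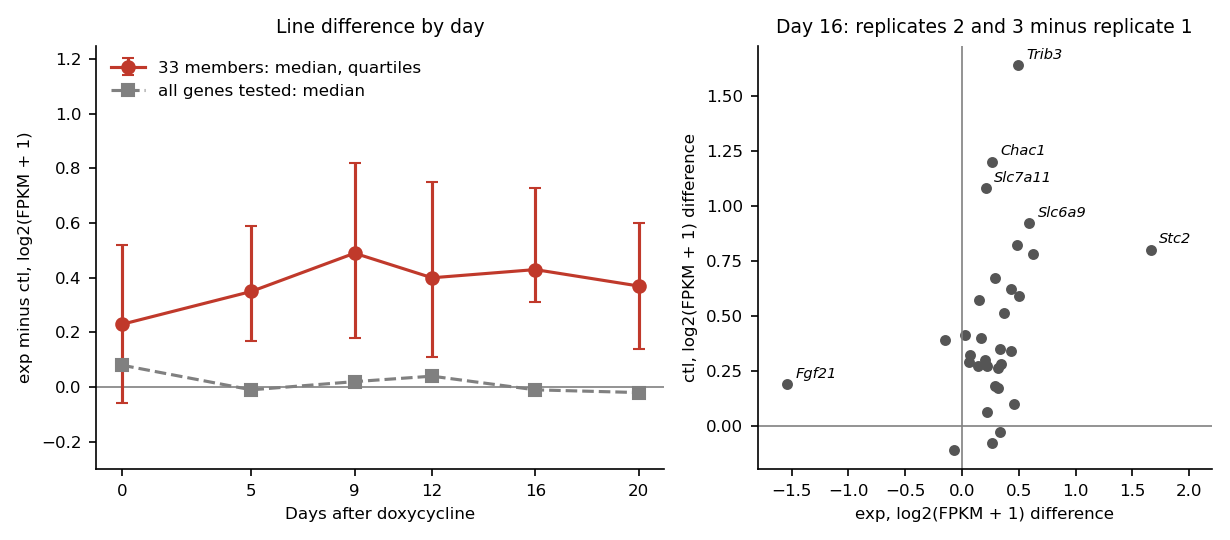
Left, the median difference between exp and ctl of the 33 genes by day (red circles, bars are the quartiles) and of all genes tested (grey squares), in log2(FPKM + 1); the median of the 33 genes was 0.23 at day 0 and between 0.35 and 0.49 afterwards. Right, each gene's step between day 16 replicates 2 and 3 and replicate 1 in exp (horizontal) and ctl (vertical); most points lie above 0 on both axes, with Fgf21 at -1.54 in exp.

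Whether the gap between the lines widened with time was asked with a line-by-day slope over 20 days. None of the 32 genes passed by limma, where 0.207% of 12559 genes did. With limma voom on the recovered reads 0 passed, where 0.215% of all genes did. By limma 0 of the 32 had an unadjusted p under 0.05, against 1388 of all 12559. The smallest p-values belonged to Slc1a4 at 0.55 ± 0.27 (log2 per 20 days, SE, adjusted p = 0.48), Sesn2 at 0.49 ± 0.28 (0.555), Eprs at 0.41 ± 0.23 (0.555) and Atf3 at -0.64 ± 0.37 (0.571). The slope differences of the 32 genes had a median of 0.19, with 30 above 0, against a median of -0.06 over all genes. Without day 0 the median was 0.09, with 19 above 0, against -0.03 over all genes. This shared shift was not tested. The standard errors of the 32 slopes ran up to 0.88, for Stc2, and day 0 has 1 library per line. A comparison of days 5 to 20 with day 0, added after the data were seen, also gave 0 genes, where 0.247% of all genes passed. Its unadjusted limma p was under 0.05 for 7 of the 32 genes and for 1747 of all 12559. In this comparison the 32 genes had a median of 0.30 (log2), with 28 above 0, against -0.05 over all genes. Slc7a5 stood at 0.89 ± 0.24 (limma adjusted p = 0.132) and Atf3 at -1.03 ± 0.24 (limma adjusted p = 0.0994) in this comparison.

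Within exp 2 genes passed the test, both rising over the 20 days. Herpud1 rose by 0.69 ± 0.16 (log2, SE, limma adjusted p = 0.0315) and Eprs by 0.76 ± 0.21 (limma adjusted p = 0.0483). Of all genes 4.95% were called, 1.36% rising and 3.59% falling. Just outside were Slc7a1 at 1.03 ± 0.29 (0.052) and Sesn2 at 0.91 ± 0.25 (0.0521). The 32 exp slopes had a median of 0.64, with 28 above 0, against -0.09 over all genes. Without day 16 replicates 2 and 3 their median was 0.41. An unadjusted limma p under 0.05 was found for 23 of the 32 genes and for 2961 of all 12559. With the replicate block 5 genes rose, Eprs, Slc7a1, Sesn2, Slc1a4 and Herpud1, against 2.34% of all genes. Without day 20 10 genes rose, against 1.42% of all genes. Without day 16 replicates 2 and 3 there were 8 calls, against 6.48% of all genes, of which 7 rose and Ddit4 fell by 0.48. The count was 0 without day 0, where 0.0717% of all genes were called, and without day 16, where 0.573% were. It was also 0 without any 1 of the exp day 16 replicates, where 1.98% to 2.41% of all genes were called. Within ctl 0 of 32 genes passed by limma and 0 by limma voom, where 0.0% of all genes passed. An unadjusted p under 0.05 was found for 4 of the 32 by limma, against 203 of all 12559. By limma voom it was found for 5, against 269 of all genes. The 4 genes by limma were Ddit4 at -0.52 ± 0.12, Ppp1r15a at -0.73 ± 0.29, Herpud1 at 0.40 ± 0.16 and Trib3 at 1.34 ± 0.63. The 32 ctl slopes had a median of 0.37, with 28 above 0, against -0.03 over all genes. Without day 16 replicates 2 and 3 their median was 0.18.

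Against their own day 0 the 33 genes had medians of 0.15, 0.37, 0.28, 0.69 and 0.34 (log2) in exp at days 5, 9, 12, 16 and 20, and of -0.11, 0.01, 0.02, 0.35 and 0.11 in ctl. From replicate 1 alone, the day 16 median was 0.51 for exp and 0.11 for ctl. The medians of all genes lay between -0.10 and -0.05 in exp and between -0.03 and 0.01 in ctl. The shared day 0 library of each line enters every one of these values. In exp 24 of the 33 genes were above their day 0 value at day 5, and in ctl 7 were. Those below in exp at all later days were Atf3, Cebpb, Nupr1, Ppp1r15a and Ddit4, of which Nupr1, Ppp1r15a and Ddit4 were in ctl also below day 0 from day 9 on.

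Related genes outside the 33 were read from lists drawn up with earlier results of these data known. Over days 5 to 20, 17.3% of all genes tested were higher in exp and 16.2% lower, with a median difference of -0.00 (log2). Of 9 genes of serine synthesis and mitochondrial one-carbon metabolism, another branch of ATF4 targets, 4 were higher and 2 lower in exp over days 5 to 20, with a median of 0.16 (log2). The higher ones were Aldh1l2 at 1.19 ± 0.13 and Mthfd2 at 0.84 ± 0.09, both mitochondrial folate enzymes, and Psph and Shmt2 at 0.54 ± 0.07 and 0.36 ± 0.08. Mthfd2 was at 41.0 FPKM in exp against 27.8 in ctl at day 0 and at 52.2 in exp against 30.3 in ctl at day 20. The lower ones, named after their values were seen, were Shmt1, the cytosolic serine hydroxymethyltransferase, at -0.30 ± 0.07 and the mitochondrial folate carrier Slc25a32 at -0.34 ± 0.10. Of 22 tested genes in a second list of ATF4-responsive genes 10 were higher and 2 lower, with a median of 0.19. Those with the smallest p were Jdp2, a basic leucine zipper factor, at 0.77 ± 0.06, the glutamine carrier Slc1a5 at 0.71 ± 0.08, the alanine transaminase Gpt2 at 0.91 ± 0.10 and the mitochondrial Pck2 at 0.66 ± 0.09. The lower ones, also named after their values were seen, were the stress gene Gadd45a at -0.42 ± 0.10 and the autophagy receptor Sqstm1 at -0.25 ± 0.07.

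The remaining lists had few calls or calls in both directions, beside the 33.4% of all genes called over days 5 to 20. Beside 0.46 for the 32 genes, the median differences (log2) were -0.02 for the other cytosolic synthetases and -0.04 for the mitochondrial ones. They were -0.02 for the eIF2 and related genes and -0.07 for the endoplasmic reticulum genes. They were 0.02 for the p53 targets, 0.13 for the mTORC1 and sterol readouts, and -0.00 over all genes. Of 11 cytosolic tRNA synthetases outside the 33 genes 2 were higher, Yars at 0.30 and Iars at 0.34 (log2), and 2 lower, Rars at -0.19 and Vars at -0.20. Of 17 mitochondrial tRNA synthetases 0 were called by limma and 0 by limma voom, with 1 at an unadjusted p under 0.05. Their smallest adjusted p was 0.109, for Yars2 at -0.21 ± 0.09. Of 16 genes for the eIF2 kinases, eIF2, its exchange factor and related factors (Ppp1r15b, Impact, Gcn1l1, Dele1 and Oma1) 2 were higher and 3 lower. Eif2s2, a subunit of eIF2, was at 0.60 ± 0.12 and the kinase gene Eif2ak2 at 0.25 ± 0.07. Gcn1l1, which encodes the GCN2 activator GCN1, was at -0.39 ± 0.05. Eif2ak3, the gene of PERK, and Eif2b1, of the exchange factor eIF2B, were both at -0.17 ± 0.06. Eif2b1 was named after its value was seen. A list of 17 genes held endoplasmic reticulum chaperones, genes of protein degradation there (Syvn1, Sel1l and Edem1), and Atf6 and Xbp1 themselves. Of these 0 were higher and 2 lower, Syvn1 at -0.27 ± 0.04 and Creld2 at -0.29 ± 0.09. Of 11 tested p53 targets, some of which share stress inputs with ATF4, 3 were higher, Mdm2 at 0.18, Bbc3 at 0.22 and Cdkn1a at 0.51. Of 8 tested readouts of mTORC1, sterol synthesis and proliferation, Sqle at 0.51 and Odc1 at 0.56 were higher and Myc at -0.63 was lower.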

How the data were processed

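Expression values were deposited by the authors as FPKM per gene, 1 file per library with 24485 gene IDs, of which 24416 were matched to a symbol. Libraries were made with the TruSeq v2 mRNA protocol, per the labels' protocols, and aligned with Bowtie2 2.2.3 to mm9, per the submitters' processing notes. How reads were counted, and with what annotation and strand rule, is not given in the sources used here, so reads of overlapping genes cannot be assigned. Samples were grouped by the line, day and replicate in their titles. The genes, the related lists and the tests were chosen with earlier results of these data known.

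Tests used limma 3.58.1 with statmod 1.5.0 (R 4.3.3) on log2(FPKM + 1), with a pseudocount of 1, a mean-variance trend, robust empirical Bayes and a mean of at least 1 FPKM over the libraries fitted, and the threshold was an adjusted p under 0.05 (Benjamini-Hochberg over all genes tested, two-sided). Line differences were fitted at day 16 (6 libraries) and over days 5 to 20 (14 libraries, day as a factor), and slopes per 20 days over all 16. Slope fits of both lines share their residual spread. All 33 genes are named. In each fit those past the threshold and the 4 with the smallest p are given, and up to 4 of each related list. The tests were tested on simulated data.

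Whole reads were recovered from the steps of the FPKM values for 18064 genes, all those above 0 in at least 4 libraries, with values within 0.02 read of whole numbers and at most 9.03e-05 read away. On simulated data 99.97% of 17630 genes were returned exactly. limma voom on these reads was added as an alternative. Day 16 libraries with the same replicate number deviated together in the lines (correlations of 0.38, 0.27 and 0.33 for replicates 1, 2 and 3), so by the rule used, every correlation over 0.1, the numbers were taken to pair the samples. Exp replicate 3 with ctl replicate 2 gave 0.40 and exp replicate 2 with ctl replicate 3 gave 0.21, while pairs of replicate 1 with 2 or 3 gave -0.42 to -0.28, so the values set replicate 1 apart but do not tell replicates 2 and 3 from each other. The labels do not say what the numbers share. Other alternatives were pseudocounts, filters, rescaling, the replicate block, and each day or replicate left out. Coordinates are 1-based.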

Additional observations from a re-analysis of the deposited data

Results flagged for a closer look

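At day 16, 3 of the 33 genes moved in opposite directions in the lines between replicate 1 and replicates 2 and 3, with both of these replicates on the same side of replicate 1 in each line. Atf3 differed by -0.15 (log2) in exp and by 0.39 in ctl, Fgf21 by -1.54 in exp and by 0.19 in ctl, and Ddit4 by 0.26 in exp and by -0.08 in ctl. The difference between the lines in this step was not tested for any of these genes. The Fgf21 step in exp rests on 127 reads in replicate 1 and on 36 and 32 reads in replicates 2 and 3.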

How the results depend on the processing

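Of the 23 genes called over days 5 to 20, 20 stayed called in each alternative that tested them, and Eprs, Atf3 and Ppp1r15a did not. The count lay between 21 and 25, with Slc7a1 and Stc2 gained under the replicate block, and without day 16 Slc1a4 was lower at -0.25 ± 0.06 beside 21 higher. At day 16 the count of 3 became 1 with no filter on low values and 11 with the replicate block. It was 23 with replicates 2 and 3 alone, and between 0 and 9 with 1 replicate left out. The share of all genes called was 6.1%, and it was 3.83% with no filter and 8.16% with the block. With 1 replicate left out that share was 1.57% to 12.8%. The fit of replicates 2 and 3 was added after seeing the data and called 34.7% of all genes, where these replicates correlated at 0.995 in exp and 0.997 in ctl. The exp slope count of 2 became 1 with no filter, 4 with a mean FPKM of at least 5, 6 with median-of-ratios rescaling, 1 without trend and robust fitting, 5 with the replicate block, 0 without day 0 or day 16, 1 without day 9 or day 12, 10 without day 20, 8 without day 16 replicates 2 and 3, 0 with the replicates averaged, and 0 to 2 with 1 replicate left out. Among all genes 4.95% were called before these changes. That share was 3.08% with no filter, 5.4% with the mean of at least 5, 3.34% with rescaling and 4.97% without trend and robust fitting. It was 8.25% with the block, 0.0717% without day 0, 3.53% without day 9, 2.95% without day 12 and 0.573% without day 16. Without day 20 it was 4.59%, and without day 16 replicates 2 and 3 it was 6.48%. With the replicates averaged it was 1.04%, and with 1 left out 1.98% to 3.71%. The rescaling moved the median exp slope of all genes to 0.02, against -0.09. It moved the calls over all genes to 263 rising and 157 falling, against 171 and 451. Slope differences reversed without day 0 for Eprs, to -0.02, and for Atf3, to 0.27. The median of the 33 genes at day 9 was 0.39 with a pseudocount of 5, against 0.49. The causes were not tested. The block changed no other count of calls by over 1.5 times. Days other than 16 have 1 library per line, which limits every slope, and Gdf15 and Fgf21 are limited by reads.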
